A study of Mus musculus with 19 samples.

Results

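The genes described here are 10 members of the BCL2 family, the proteins that set whether a cell opens its mitochondria and dies by apoptosis. They were taken as every array probe whose RefSeq accession maps to Bax, Bak1, Bbc3, Pmaip1, Bid, Bad, Bcl2l11, Bcl2, Bcl2l1 or Mcl1. This gave 13 probes, of which 13 passed the filter on dim signals, among 30999 probes tested on the whole array; the members are 10 of 14735 gene symbols with a tested probe. Bad, Bcl2l1 and Mcl1 each had a pair of probes, and each gene is shown by its brighter one unless the other is named. Measurements came from lung tissue of adult male MutaMouse (the labels write MutaTMMouse), a transgenic mutation-reporter strain on a BALB/C-DBA/2 background, aged about 12 weeks. The study's methods name the right lobe as the part collected. The animals were gavaged daily for 28 days with olive oil (D0, 5 mice) or with the same oil carrying 8 polycyclic aromatic hydrocarbons (the 8PAH mixture) at 15 (D1, 4 mice), 30 (D2, 5 mice) or 60 (D3, 4 mice) mg benzo[a]pyrene equivalents per kg per day, and lung was taken 72 h after the last dose, with RNA from randomly chosen sections. Every level below is a log2 ratio of lung RNA (Cy5) over a reference RNA from 11 mouse cell lines (Cy3), and every change is a difference between groups on that log2 scale.

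Apoptosis through mitochondria is decided by physical binding among these proteins. BAX and BAK, the pore formers, oligomerize in the outer mitochondrial membrane and let cytochrome c escape. The BH3-only proteins PUMA (Bbc3), NOXA (Pmaip1), BID, BAD and BIM (Bcl2l11) report damage or lost growth signals, either by activating the pore formers or by occupying the groove of the pro-survival proteins BCL2, BCL-XL (Bcl2l1) and MCL1, which otherwise hold the pore formers back. The transcription factor p53 is a known activator of Bax, Bbc3 and Pmaip1. Polycyclic aromatic hydrocarbons bind the aryl hydrocarbon receptor and are metabolized to DNA-reactive products, so the comparison of pro-death with pro-survival transcripts across doses asks which side of this family responds in lung.

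The arrays lay on 3 slides of 8, 7 and 4 arrays, each with all 4 groups. The array position on the slide followed the dose on every slide, so position and dose cannot be told apart, and no dyes were swapped. Mouse 23 is labelled D2, although its number lies among those of D1 and the group sizes stated in the study's methods also fit it there. It was kept as labelled, so the numbers of D1 and D2 mice follow the labels, and values without it are given where a call rests on it. The labels of 2 D3 samples carry the mouse number 35 with different suffixes, which they do not explain. These were taken as 1 mouse on 2 arrays and averaged, and the D3 group size and means rest on that reading. With either array alone, the D3 change of Bax was 1.14 or 1.11, called both times. The lung markers of alveolar type 2 cells were bright, with mean red signals of 29400 to 509000 for 5 of 5 tested genes.

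Bax was called at D2 and D3 and at no other contrast against D0. A call here means an adjusted p of at most 0.05 (limma, Benjamini-Hochberg over all tested probes) together with a change of at least 1.5-fold. Per mouse, the log2 ratio of Bax was -1.77, -1.48, -1.55, -2.32 and -2.28 in D0. In D1 it was -1.66, -1.46, -1.36 and -0.87. In D2 it was -1.62, -0.35, -0.69, -1.05 and -0.54, and in D3 it was -0.87, -0.60, -0.33 and -1.21. Every D3 mouse lay above every D0 mouse, whereas the D2 mouse at -1.62, mouse 23, lay inside the D0 range. The group means were -1.88 ± 0.40 (SD, n = 5) in D0, -1.34 ± 0.33 (n = 4) in D1, -0.85 ± 0.50 (n = 5) in D2 and -0.75 ± 0.38 (n = 4) in D3. The change at D3 was 1.13 ± 0.24 (SE), with a 95% interval of 0.62 to 1.64, a 2.18-fold rise (adjusted p = 0.00537). The change at D2 was 1.03 ± 0.23 (adjusted p = 0.0222), and that at D1, 0.54 ± 0.24, was not called (adjusted p = 0.222). D3 minus D2 was 0.10 with an interval of -0.42 to 0.61 (adjusted p = 0.922), so these doses did not differ beyond the error, which still allows a further rise of 1.5-fold. A linear term over dose was also called for Bax, with a fitted change from D0 to D3 of 1.14 ± 0.26 (adjusted p = 0.0114). This term was not particular to Bax. It also passed the p threshold, under 1.5-fold, for Bcl2l1 (0.45 ± 0.10, adjusted p = 0.00867) and Pmaip1 (0.50 ± 0.14, adjusted p = 0.0419). The dimmer Bcl2l1 probe did not pass (0.27 ± 0.10, adjusted p = 0.112).

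**Figure D1:**
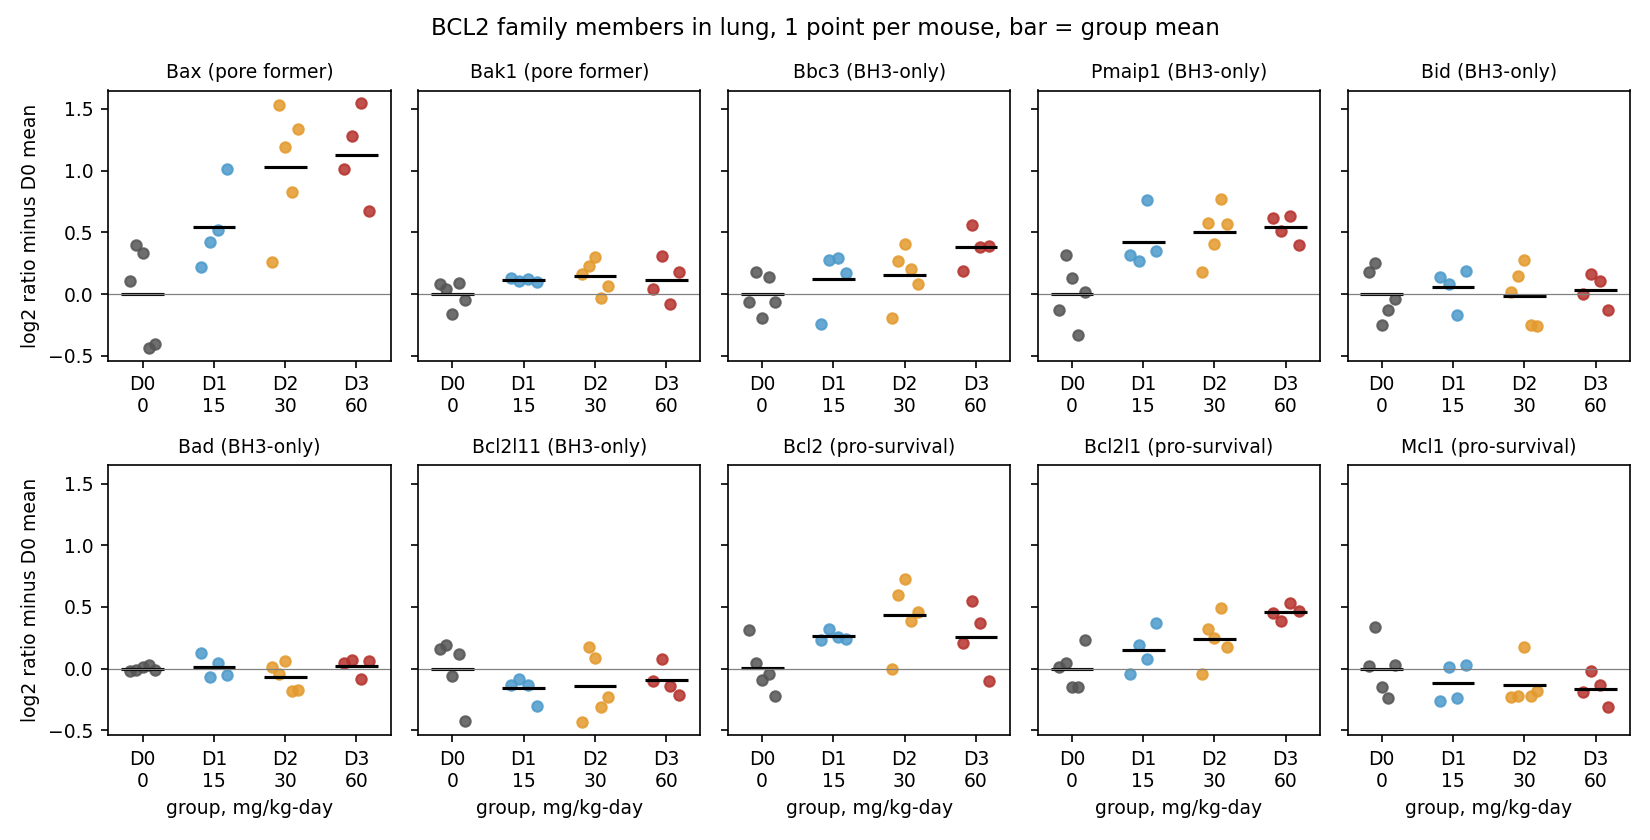
Log2 ratio of each member minus its D0 mean, by dose group in mg benzo[a]pyrene equivalents per kg per day, with 1 point per mouse and a bar at the group mean. Bax reaches 1.55 in a D3 mouse, while Bak1, the other pore former, stays between -0.08 and 0.31 there.

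Called probes were rare in each comparison: 1.06% of all tested probes at D1, 0.626% at D2, 2.43% at D3 and 1.53% in the dose trend, either direction. Of the 13 member probes, D1 had 0 calls, while D2 and D3 had 1 each, in both cases Bax, and no dose had a lower call. Upward changes that passed the adjusted p threshold, whatever their size, numbered 1 of 13 probes at D1 (the dimmer Bcl2l1 probe; 2.42% of all tested probes), 2 at D2 (Bax and Pmaip1; 1.37%) and 4 at D3 (Bax, Pmaip1 and both Bcl2l1 probes; 6.03%). The count of 0 at D1 stood beside 3 member probes with an unadjusted p under 0.05, where 19.8% of all tested probes had one. Bax ranked 80 by size of increase among all probes at D3 and 37 at D2.

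Bax was also the member whose mice varied most. Its standard error at D3, 0.24, was the highest among members (range 0.07 to 0.24), and 97.6% of all tested probes had a smaller one. The spread was already present in vehicle mice, where mice 4 and 5 lay at -2.32 and -2.28 and the other 3 between -1.77 and -1.48. The reference channel at this probe ranged from 2270 to 2960 in D0 and 2270 to 2830 in D3, so its range was alike in both groups, while the mean red signal was 765 in D0 and 1990 in D3. These red signals are not normalized, and those of uncalled members were also higher in D3, as for Bak1 (1900 in D0 and 2610 in D3) and Bad (5570 and 7370), so part of the contrast in red signal was shared with them. From the red channel alone the change at D3 was 1.06 (adjusted p = 0.0112). Within slides 1, 2 and 3 the D3 change of Bax was 0.89, 1.19 and 1.01, that at D2 was 1.11, 1.14 and 0.66, and that at D1, the least even, was 0.07, 0.57 and 1.41. Slide 3 held 1 array of each group, and the D3 values of slides 2 and 3 share mouse 35. Without mouse 23 the D2 change was 1.22 (adjusted p = 0.00441), and with it in D1 the changes were 0.48 at D1 (adjusted p = 0.164) and 1.22 at D2 (adjusted p = 0.00324). The D2 call was lost when any of 5 mice (mice 4 and 5 of D0 and mice 26, 28 and 30 of D2) was left out, with changes of 0.91 to 0.99 and adjusted p-values of 0.0528 to 0.0627. With median centring in place of the intensity-dependent correction, neither call held, although the changes were 1.19 at D2 (adjusted p = 0.147) and 1.27 at D3 (adjusted p = 0.0606).

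The upstream sequence of Bax is shown because Bax alone was called and because p53 and the aryl hydrocarbon receptor, the sensors of these compounds and their damage, act through short DNA motifs. The 250 bases before the annotated start of each gene were searched on both strands for the receptor core GCGTG and for the p53 half-site. Windows of 9 of the 10 members, all but Pmaip1, were searched, 15 in all. Below are the Bax window (chr7:45466899-45467148, minus strand), the Bak1 window (chr17:27028628-27028877, minus strand), for the pore former that was not called, and the first window of Bbc3 (chr7:16309333-16309582, plus strand). The build is GRCm38.p6, the sequences are from RefSeq, each is written 5′ to 3′ in the direction of the gene, and capitals mark a p53 half-site in Bax and receptor cores, read on either strand, in Bbc3.
Bax: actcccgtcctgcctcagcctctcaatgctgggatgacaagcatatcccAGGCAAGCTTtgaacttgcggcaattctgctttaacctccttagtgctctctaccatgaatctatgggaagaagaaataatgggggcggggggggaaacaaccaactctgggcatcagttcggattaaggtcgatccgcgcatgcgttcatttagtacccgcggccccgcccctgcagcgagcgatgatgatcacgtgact
Bak1: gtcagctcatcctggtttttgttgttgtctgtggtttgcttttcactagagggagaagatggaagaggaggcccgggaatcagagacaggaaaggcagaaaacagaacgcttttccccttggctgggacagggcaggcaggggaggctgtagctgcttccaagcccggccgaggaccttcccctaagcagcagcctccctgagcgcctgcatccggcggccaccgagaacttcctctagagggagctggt
Bbc3: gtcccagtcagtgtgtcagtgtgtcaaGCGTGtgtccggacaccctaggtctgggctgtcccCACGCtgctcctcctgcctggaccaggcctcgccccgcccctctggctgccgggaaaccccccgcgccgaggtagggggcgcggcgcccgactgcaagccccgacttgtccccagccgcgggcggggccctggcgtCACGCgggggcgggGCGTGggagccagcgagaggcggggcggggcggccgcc
The Bax window held 1 p53 half-site, 201 bases before the start, and no receptor core. Of 32851 windows of this length in the same RefSeq table, 7.13% held a p53 half-site and 28.2% a receptor core. The Bbc3 window held 4 receptor cores, and the Bak1 window held neither motif. Among the 9 members searched, a receptor core stood in some window of 4 (Bad, Bbc3, Bcl2l1 and Bcl2l11) and a p53 half-site in that of Bax alone, which came to 7 and 1 of the 15 windows. The longer receptor form TNGCGTG, in 4.1% of all windows, stood in 1 Bcl2l11 window, and the letters TATAAA, in 12.4%, in none of the 15. The GC content of the member windows ran from 47.6% to 81.6%, against a median of 52.4% over all windows. Its part in the matches was not tested. The Bbc3 windows at 16310011-16310260 and 16310181-16310430 overlap, so the 15 windows are not all separate stretches. A match of letters is a description, not a binding site.

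Bak1 did not follow Bax. Mean log2 ratios of -0.94 ± 0.11 (SD, n = 5) in D0, -0.82 ± 0.01 (n = 4) in D1, -0.79 ± 0.13 (n = 5) in D2 and -0.83 ± 0.17 (n = 4) in D3 were measured. The D1 mice, between -0.84 and -0.81, lay just above the D0 range of -1.10 to -0.85, and the groups overlapped at D2 and D3. The change at D3 was 0.11 with an interval of -0.07 to 0.29 (adjusted p = 0.441), so a change of 1.5-fold (0.58 on the log2 scale) lay outside its error.

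Pmaip1 (NOXA), a BH3-only protein that binds MCL1, was the next member by size of change. The D0 mice read -0.02, 0.43, 0.24, -0.22 and 0.13 for its log2 ratio. The dosed mice read 0.43, 0.38, 0.87 and 0.46 in D1, 0.30, 0.69, 0.52, 0.88 and 0.68 in D2, and 0.73, 0.62, 0.74 and 0.52 in D3. All 4 D3 mice lay above the highest vehicle mouse, and D1 and D2 each overlapped D0. The changes were 0.42, 0.50 and 0.54 at D1, D2 and D3, each with an SE of 0.12 to 0.13. Adjusted p-values were 0.0726, 0.0406 and 0.0114, so D2 and D3 passed the p threshold but stayed under 1.5-fold. D1 also passed with slide as a block (0.44, adjusted p = 0.0453) and without mouse 2 of D0 (0.50, adjusted p = 0.033), again under 1.5-fold. The D2 pass was lost under 15 of 31 alternatives, 10 of them single mice left out (highest adjusted p = 0.927, with median centring), and the D3 pass under 1, median centring, where the change was larger and past 1.5-fold (0.66, adjusted p = 0.707). The D3 value was close to the fold threshold: without mouse 2 of D0 the D3 change was 0.62 (adjusted p = 0.00512) and without mouse 35 of D3 it was 0.59 (adjusted p = 0.0199), both called. The lowest and highest doses were close, and D3 minus D1 was 0.12 with an interval of -0.17 to 0.41.

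Bbc3 (PUMA), which binds all pro-survival members, had its largest difference from D0 at the top dose. Per mouse its log2 ratio was -0.09, 0.15, -0.22, 0.11 and -0.09 in D0 and 0.16, 0.53, 0.35 and 0.36 in D3. The groups did not overlap, by 0.16 against 0.15. The difference was 0.12 at D1, 0.15 at D2 and 0.38 ± 0.13 at D3 (adjusted p = 0.0556), which missed the p threshold. Across the 31 alternatives of processing and of mice left out, the D3 change ranged from 0.32 to 0.57 and its adjusted p from 0.0313 to 0.78. It passed the p threshold under 9 of them, among them without mouse 23 (adjusted p = 0.037) and with mouse 23 in D1 (adjusted p = 0.0425), and was called under none.

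The other BH3-only members did not pass the test at any dose. Bid, which caspase-8 cleaves to link death receptors to mitochondria, read 0.06, -0.01 and 0.04 for the difference from D0 at D1, D2 and D3. The same differences of Bad, which growth factor signalling keeps phosphorylated, were 0.01, -0.06 and 0.02, and those of its other probe 0.14, -0.17 and 0.10. For Bcl2l11 (BIM), which responds to lost growth factors, they were -0.16, -0.14 and -0.09. Its probe was dim, with a red signal of 113 to 124 in the group means, and was well above background in 15 of 18 mice. For Bid, Bad and Bcl2l11 the intervals at D3 were -0.22 to 0.29, -0.12 to 0.17 and -0.36 to 0.18, all inside 1.5-fold in either direction. With the scanner software's processed signals, however, the changes of Bcl2l11 were -0.54, -0.73 and -0.45 at D1, D2 and D3, with none passing the test (lowest adjusted p = 0.139, at D2) and the one at D2 past 1.5-fold, so its size depended on the processing.

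Bcl2l1, which encodes BCL-XL, was the pro-survival member with the largest change at D3. In D0 its log2 ratio was 1.28, 1.32, 1.11, 1.12 and 1.5 and in D3 it was 1.72, 1.65, 1.79 and 1.73. The 4 D3 mice lay within 0.14 of each other and above every D0 mouse. The change was 0.46 ± 0.10 (1.38-fold, adjusted p = 0.00744), past the p threshold and under 1.5-fold; of 31 alternatives, median centring alone lost the pass, with a larger change (0.64, adjusted p = 0.794). The second probe gave 0.33 ± 0.09 at D3 (adjusted p = 0.0196), with overlapping groups. At D1 the probes differed, with 0.15 (adjusted p = 0.47) for the brighter one and 0.32 (adjusted p = 0.0449) for the other. At D2 they gave 0.24 and 0.19, and neither passed.

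Bcl2 itself was highest in D2. Mean levels (log2 ratios) were -0.26 ± 0.20 (SD, n = 5) for D0, 0 ± 0.04 (n = 4) for D1, 0.17 ± 0.27 (n = 5) for D2 and 0 ± 0.27 (n = 4) for D3. The change at D2 was 0.43 ± 0.13 (adjusted p = 0.0919), and without mouse 23, the lowest D2 mouse at -0.26, it was 0.54 (adjusted p = 0.0243). With slide as a block and every mouse kept, it was 0.43 with an adjusted p of 0.023, so this pass did not need mouse 23 to be left out. At D3 the change was 0.26 ± 0.14 (adjusted p = 0.252), and mouse 35 lay at -0.36, inside the vehicle range. D3 minus D2 was -0.18 with an interval of -0.47 to 0.11, so the apparent peak at D2 was within the error.

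Mcl1, a short-lived pro-survival protein, did not pass the test at any dose. Differences from D0 were -0.11, -0.13 and -0.16 by its brighter probe and 0.06, 0.01 and 0.14 by its other probe, so the probes disagreed in sign. With median centring those of the brighter probe were 0.25, 0.10 and 0.07. No direction is given for Mcl1.

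**Figure D2:**
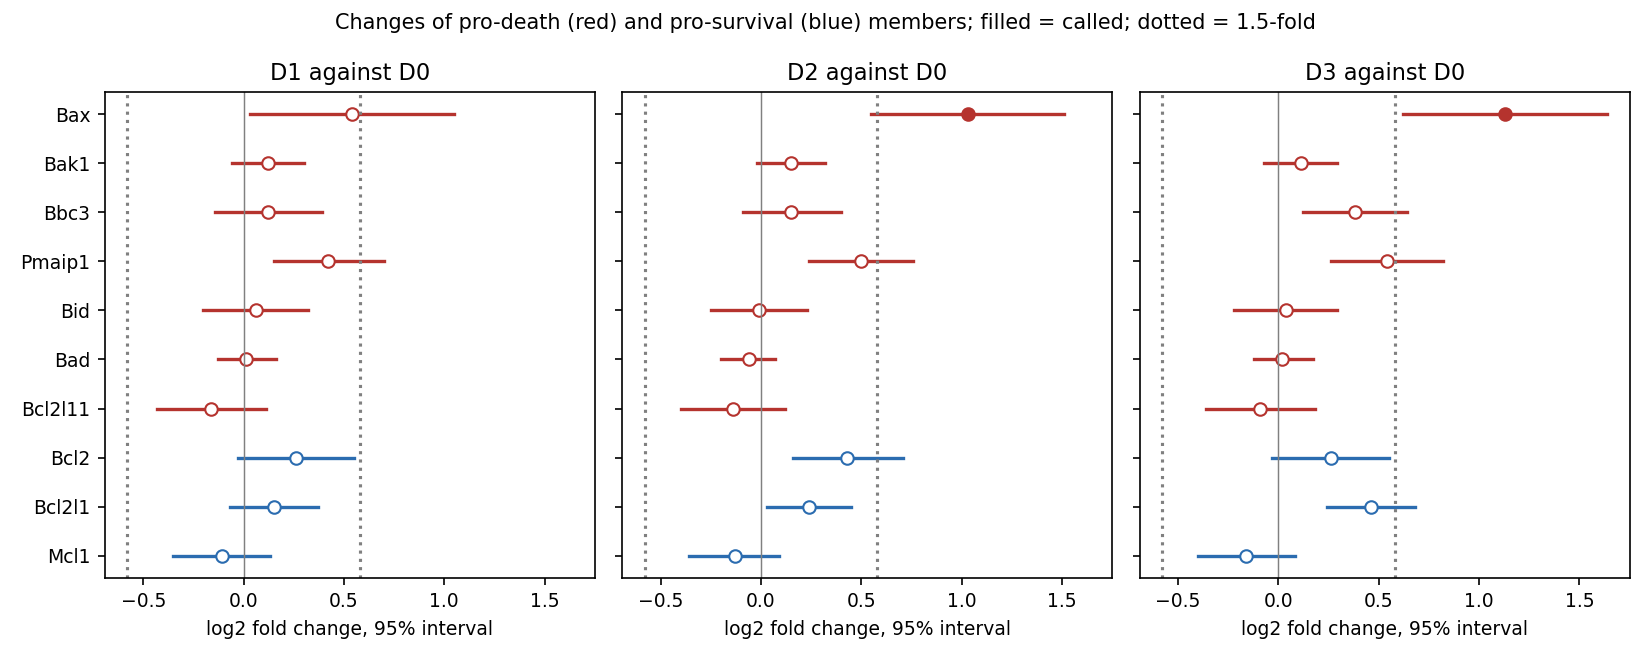
Log2 fold change of each member against D0 at the 3 doses, with its 95% interval, pro-death members in red and pro-survival members in blue. Filled points are called, and Bax at 1.03 (D2) and 1.13 (D3) is the sole filled member.

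By role, both pro-death and pro-survival members were among those that passed at D3. Of 7 pro-death members 2 passed the adjusted p threshold upward at D3 (Bax and Pmaip1) and of 3 pro-survival members 1 did (Bcl2l1). The median change at D3 was 0.11 over the pro-death members, 0.26 over the pro-survival members and 0 over all tested probes. Groups did not overlap between D3 and D0 for 4 of 10 genes (Bax, Bbc3, Pmaip1 and Bcl2l1), where 14.6% of all tested probes did not. At D1 this held for 1 of 10 genes, Bak1, against 8.93% of probes, and at D2 for 0 of 10 against 4.11%.

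Within each mouse, the median of the 7 pro-death members minus that of the 3 pro-survival members (each gene as its difference from its D0 mean) was 0.08 ± 0.10 in D0, 0.02 ± 0.12 in D1, -0.10 ± 0.19 in D2 and -0.05 ± 0.24 in D3 (SD over mice). In D1, D2 and D3 the mean lay within 1 SD of 0. The difference of Bax and Bcl2, a ratio often used to describe readiness for apoptosis, was 0 ± 0.36 in D0, 0.28 ± 0.34 in D1, 0.60 ± 0.30 in D2 and 0.87 ± 0.21 in D3. In D3 it ran from 0.73 to 1.19 and in D0 from -0.40 to 0.42, so these groups did not overlap. Bax by itself also did not overlap between these groups, so this separation is not independent of the Bax result. The difference is one of RNA, not of protein. Without Bax, the median of the pro-death members was 0.02 ± 0.11 in D0 and 0.10 ± 0.10 in D3. These are descriptions with no test, since the members were chosen with results of these data known.

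**Figure D3:**
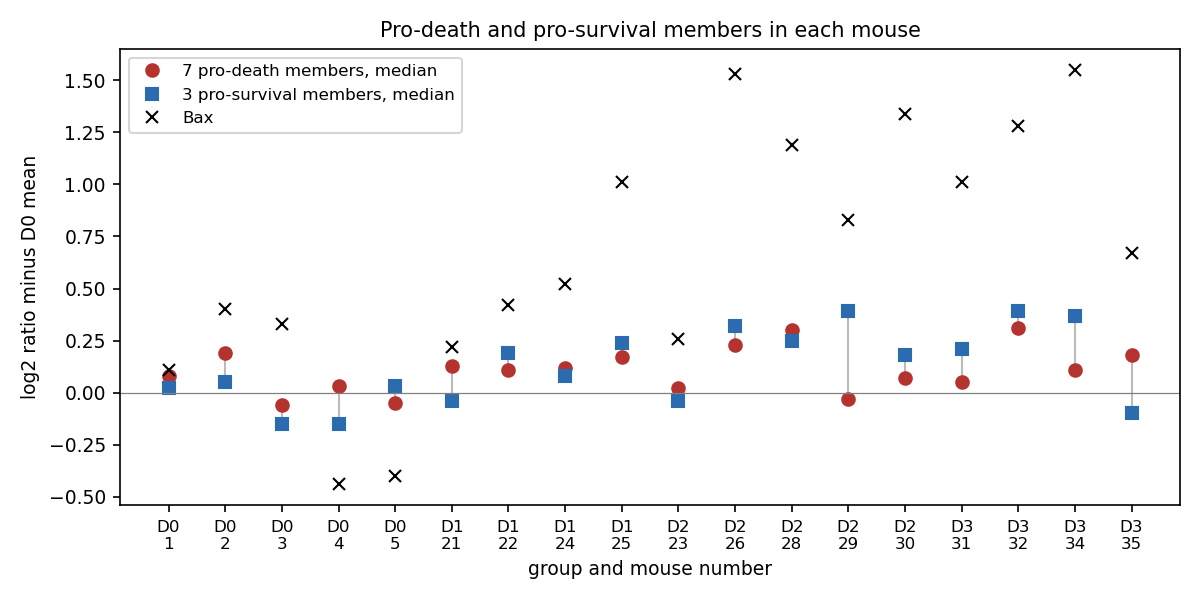
For each mouse (group and mouse number below), the median over pro-death members, the median over pro-survival members and Bax, each as the log2 ratio minus the D0 mean. Bax stands above both medians in all D3 mice, by 0.77 to 1.19 over the pro-survival median, while in those mice the medians stay between -0.10 and 0.39.

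Mouse 23 was the lowest of the D2 mice for 7 of 10 members. Mice 29 and 30 were lowest for 2 and 1.

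Comparisons between dosed groups gave no called member. D2 against D1 had 0 called of 13 probes and 1 with an unadjusted p under 0.05, where 0% of all tested probes were called and 9.83% had such a p. D3 against D2 had 0 called and 2 with such a p, where the shares of all probes were 0.106% and 11.7%, and D3 against D1 had 0 called and 2 with such a p, where they were 0.145% and 7.67%. The largest of these member changes, Bax between D1 and D3, was 0.59 with an interval of 0.05 to 1.13 (adjusted p = 0.592).

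Calls were also counted among the remaining family genes and the steps around the mitochondrion, beside shares of all tested probes of 1.06%, 0.626% and 2.43% at D1, D2 and D3. Of 15 further BCL2 family genes 11 were tested and 0 were called at any dose, with a median change of 0 at D3; with slide as a block, or from the red channel alone, 1 was called at D2. Of 18 genes acting at or after cytochrome c release, the calls numbered 1, 1 and 0 over the rising doses, with a median change of 0.14 in D3. The count at D3 was 1 with slide as a block, with background correction and from the red channel alone, and 2 with the processed signals, while median centring gave 0 at D1 and D2. The called gene was Birc5 (survivin, made in dividing cells), at 1.42 (adjusted p = 0.000547), 1.03 (adjusted p = 0.0041) and 0.58 (adjusted p = 0.0531) at D1, D2 and D3, and a second probe of it was called at D1 alone (0.68, adjusted p = 0.00332). Also in this list, and named after their values were seen, Apaf1, the apoptosome scaffold, changed by 0.29 (adjusted p = 0.0163) and Birc3, an inhibitor of apoptosis, by -0.34 (adjusted p = 0.0415) at D3, each under 1.5-fold. Of 10 regulators of the family none was called, and 1 passed the adjusted p threshold, Ywhaz (14-3-3 zeta, which binds phosphorylated BAD), at -0.36 in D1 (adjusted p = 0.0293) and -0.33 in D3 (adjusted p = 0.0241), under 1.5-fold and likewise named afterwards. The other probes of Ywhaz read -0.16 and 0.06 in D3, and neither passed.

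Calls were also counted among p53 targets outside the family. Of 21 tested, the rising doses had 7, 9 and 12 higher and 0 lower calls, with medians of 0.38, 0.48 and 0.80, against higher-call shares of 0.594%, 0.435% and 1.21% of all tested probes. With median centring the counts were 4, 5 and 7. The largest D3 changes in the list were Gdf15 (3.69), a stress cytokine, Cdkn1a (3.12), the cell cycle inhibitor p21, and Phlda3 and Ccng1 (both 2.19). Bax, at 1.13, was exceeded by 7 of the 21. The standard errors in this list at D3 ran from 0.08 to 0.18, all below that of Bax. The list was written with results of these data known.

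**Figure D4:**
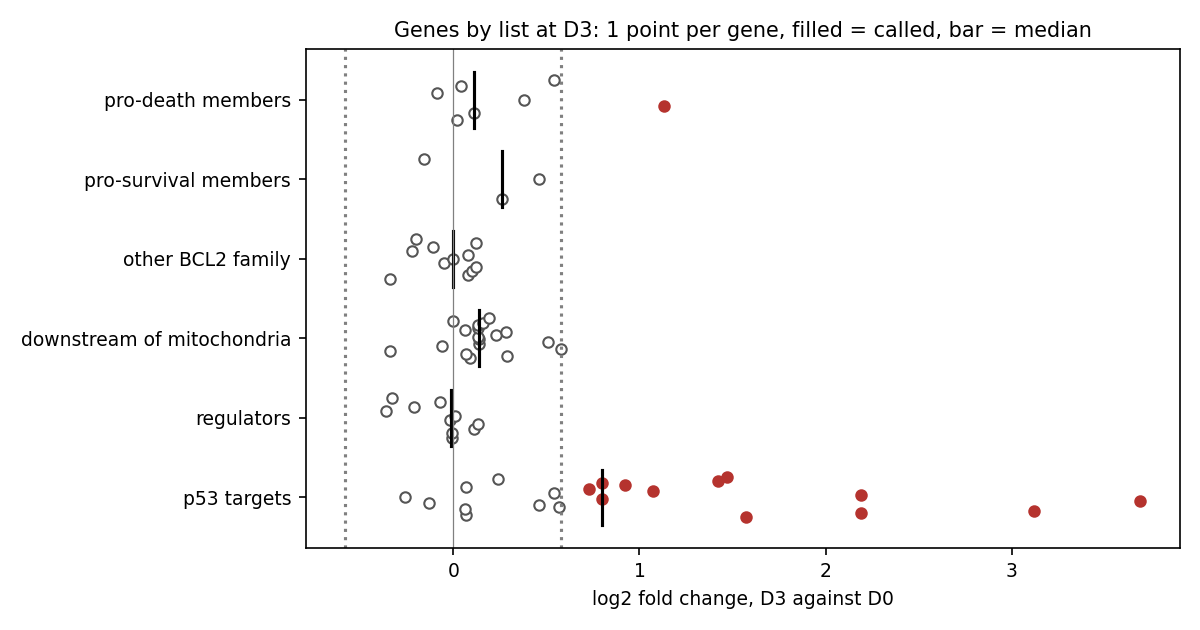
Log2 fold change at D3 against D0 for the members and for 4 further lists, with 1 point per gene, filled where called, and a bar at the list median. Bax is the only called gene outside the p53 targets, of which 12 are called.

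The 5 genes whose values in the 18 mice lay nearest to those of Bax, by root mean square difference after subtracting each gene's D0 mean, were Nhlrc2 (0.34), F13a1 (0.37), Trib2 (0.38), Lrrc75b (0.39) and Slc2a6 (0.39). Their D3 changes were 1.07, 1.11, 0.97, 1.22 and 1.24.

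Markers of some other cell types moved with dose in the same lungs, and more RNA per cell cannot be told apart from more cells of a type in whole tissue. In the neutrophil list 4 of 5 genes (S100a8, S100a9, Retnlg and Cxcr2) were called higher at D3, and the per-mouse list level ran from -0.33 to 0.38 in D0 and 0.44 to 1.76 in D3, while Csf3r changed by -0.46 (adjusted p = 0.00655, under 1.5-fold). In the natural killer cell list 2 of 5 (Gzma and Prf1) were called lower at D3, with levels of -0.45 to 0.43 in D0 and -1.20 to -0.81 in D3. In the list of dividing cells 3 of 3 were called higher at D1, 1 at D2 and 0 at D3 by their brighter probes, while a second Mki67 probe was called at D3 (0.62, adjusted p = 0.0376) and the other probes of Ccnb1 were not called at D1 (0.04 and 0.28, against 0.70 for the brighter one); Birc5, above, was called at D1 and D2. Of 4 endothelial genes 1, Pecam1, was called higher at D1 and D3. The lists for T cells, B cells, alveolar type 1 and type 2 cells, club cells, alveolar macrophages, heart muscle and red cells had 0 called at any dose, although the heart muscle level reached -2.26, -2.39 and -2.20 in the lowest D1, D2 and D3 mouse, against -0.40 in D0. Their part in the changes of the family was not tested.

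**Figure D5:**
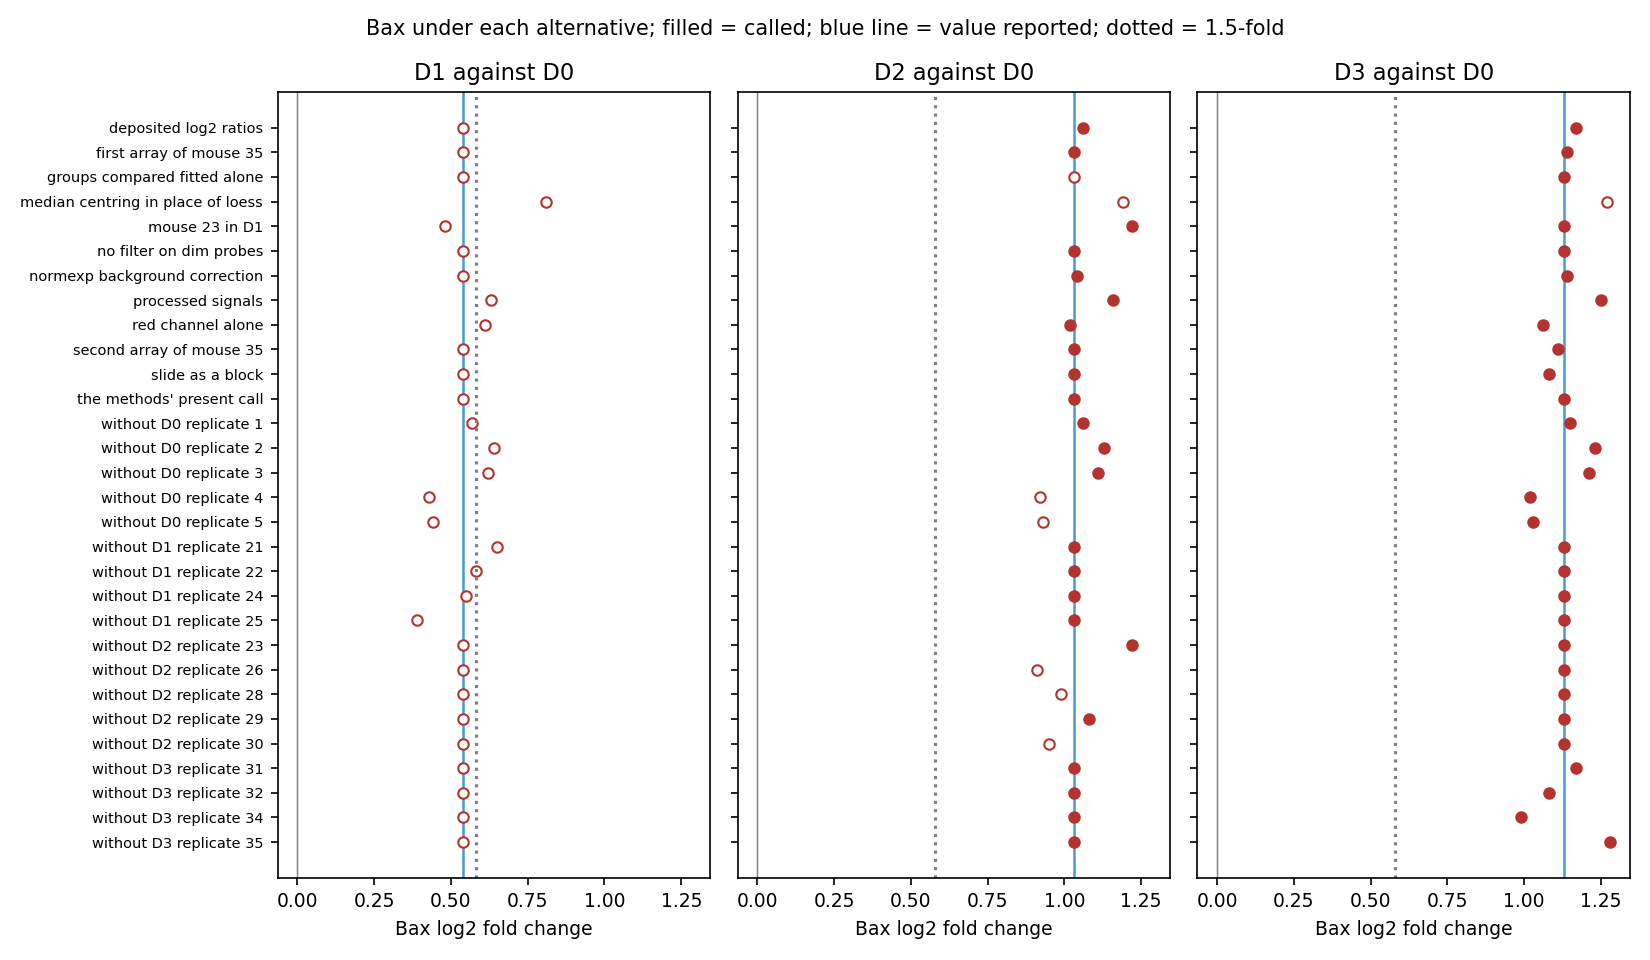
Log2 fold change of Bax against D0 at each dose under each alternative of processing or of a mouse left out (except the mean over a gene's probes, since Bax has 1), filled where called, with a blue line at the reported value. The D3 values lie between 0.99 and 1.28 with 1 open point, for median centring, while the D2 values lie between 0.91 and 1.22 with 7 open points.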

How the data were processed

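Lung RNA of 18 mice was hybridized on 19 two-colour Agilent arrays against a common reference RNA. The deposited scanner files hold the authors' spot intensity values as median signals without normalization, written by Feature Extraction 11.0.1.1 per the file headers, and the deposited series table holds log2 ratios that the authors normalized, used as an alternative. The 3671 control spots among 62976, and the 171 to 323 spots an array with an outlier mark, were removed. Following the study's methods, no background was subtracted from the medians. Loess (span 0.3) within each array was then applied, and replicate spots of a probe were averaged. These ratios correlated with the deposited ones at 0.995 to 0.998 across probes.

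Of 55681 probes, 30999 with a red signal well above background in at least 4 mice of 1 group were tested. Red signals were well above background for 54.5% to 64.7% of spots, green for 47.0% to 61.6%, and none was saturated. The number of arrays limits the precision. Of 22765 RefSeq-type identifiers, 21465 were given a symbol by a RefSeq table of GRCm38.p6. Group differences were fitted with limma 3.58.1 in R 4.3.3 over all 4 groups; MAANOVA, which the study used, was not installed. The labels give each sample a mouse number of its own, except the 2 D3 samples numbered 35, which were taken as 1 mouse. The code was tested on simulated data. The rule for naming genes took all 10 members, the 5 genes nearest to a called member, each gene called in the lists of other family genes, mitochondrial steps and regulators, and the 4 largest D3 changes among p53 targets. The members and lists were chosen with earlier results of these data known. Alternatives covered background correction, normalization, the source of the ratios, the red channel alone, the filter, the slide, the probe, the arrays of mouse 35, the group of mouse 23 and each mouse left out.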

Additional observations from a re-analysis of the deposited data

Results flagged for a closer look

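Each member's probes were checked in each group for a single mouse far from the others, by the gap to its nearest neighbour relative to the group's range. Of 52 checks, 3 stood out, where chance gives about 1 in 20. Pmaip1 read 0.87 in mouse 24 of D1, and the other D1 mice lay between 0.38 and 0.46. Bad read -0.18 in mouse 34 of D3, and the others lay between -0.05 and -0.03. Mcl1 read 0.98 in mouse 28 of D2, and the others lay between 0.57 and 0.62.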

How the results depend on the processing

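The count of called member probes was recomputed under each alternative. At D2, the count of 1 became 0 with the compared groups fitted alone (Bax adjusted p = 0.0504) and with median centring, and ran from 0 to 1 with each mouse left out. At D3, it became 0 with median centring and ran from 1 to 2 with each mouse left out, and the trend count became 0 with median centring. Median centring put the median change of all probes at 0.17, 0.12 and 0.06 at D1, D2 and D3, from 0.01, 0 and 0, and left 12, 18 and 98 probes called in all, against 328, 194 and 754; the scanner software's processed signals gave 639, 348 and 1370. The cause was not tested. In 16 of 930 gene-level values an uncalled change turned sign. With median centring these were Bad (0.18) and Bid (0.18) at D2 and Mcl1 at D1, D2 and D3 (0.25, 0.10 and 0.07). With the red channel alone they were Bad at D1 (-0.01), Bid at D2 (0.05) and Mcl1 at D1 (0.04). With a mouse left out, Bad at D1 reached -0.02 (range -0.02 to 0.04), Bid at D1 0 (range 0 to 0.14), Bid at D2 ran from -0.08 to 0.05 and Bid at D3 from -0.03 to 0.10. The fit with slide as a block used the first array of mouse 35, since its arrays lay on 2 slides. No paired analysis was possible because the groups share no mouse numbers. With 4 or 5 mice a group, the interval of the Bax change at D3 still ran from 0.62 to 1.64.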
